A study of Homo sapiens with 36 samples.

Results

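Nucleotide excision repair and bypass synthesis were followed through 10 genes, DDB1, DDB2, XPC, XPA, ERCC1, ERCC2, ERCC3, ERCC4, ERCC5 and POLH. The members were the rows of the deposited gene count table that carry these symbols, 10 of 60676 genes, and all 10 passed the filter on low counts. DDB2, XPC and POLH are known transcriptional targets of p53 and were set against the other 7 members over all 12 groups. The cells were LNCaP, an established androgen-sensitive human prostate cancer line, grown in serum-containing medium. They received the vehicle DMSO, 3 µM olaparib, 3 µM enzalutamide, or both drugs together at those doses (the combination), for 8, 24 or 72 h. Olaparib inhibits the poly(ADP-ribose) polymerases and enzalutamide is an antiandrogen. Each group had 3 cultures, and all 36 libraries came from this 1 line.

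Nucleotide excision repair removes bulky lesions that distort the DNA helix. In its genome-wide branch, the DDB1-DDB2 complex and XPC find the lesion, the helicases ERCC3 and ERCC2 of the general factor TFIIH open the helix, XPA checks the lesion, the nucleases ERCC5 and ERCC4-ERCC1 cut on either side, and replication proteins fill the gap. Bypass synthesis is the alternative at a replication fork, where a translesion polymerase such as POLH copies past a lesion that is still there. In cells with functional p53, DDB2, XPC and POLH are transcribed more after DNA damage, together with the cell cycle inhibitor gene CDKN1A.

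A search of RefSeq promoter windows (GRCh38.p14, from 250 bases before to 50 bases after a start) found 13 windows for the 10 members. Short stretches of the windows of the 3 p53-linked members are shown because these members were set against the rest. The first, at chr11:47214970-47214999 on the plus strand, has in capitals a full p53 response element, that is 2 half-sites of the p53 consensus with at most 13 bases between them. The others, at chr3:14178625-14178654 on the minus strand and chr6:43576097-43576126 on the plus strand, have in capitals the GC box GGGCGG nearest to the start, which in POLH occurs as 2 overlapping copies. The XPC stretch lies upstream of a RefSeq start at 14178601 but inside the annotated exon from 14178466 to 14178783.
DDB2: agctggtttGAACAAGCCCTGGGCATGTTT
XPC: cgcaccgcctcgGGGCGGggccggcgttct
POLH: gagcctaggtGGGCGGGGCGGgaggcggaa
The element in DDB2 covered bases 6 to 26 counted from a RefSeq start at 47214974, with the start as 1, inside the annotated exon from 47214942 to 47215263. Searched on both strands, such an element was present in 0.0285% of the 35116 windows, a half-site alone in 6.63% and a GC box in 45.0%. Windows of DDB2, DDB1, XPA, ERCC1, ERCC2 and ERCC5 held a GC box too, so the box does not mark the p53-linked members. Among the windows of the members, only this one of DDB2 held a full element or a half-site. No match in the windows of XPC and POLH says only that these letters were not in those 300 bases. An E2F site (TTTCCCGC, TTTGGCGC, TTTCGCGC or TTTGCCGC), present in 3.31% of windows, occurred among the members only upstream of XPC.

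Library totals ran from 4.15 to 15.4 M counts (median 9.63 M). The column headers name 3 sequencing lanes, each with 1 library from every group, and the lane medians were 10.0, 6.08 and 11.7 M. DMSO 72 h replicate 1 stood apart, with 4.66 M counts and 1.54% mitochondrial counts against 3.97 to 7.05% elsewhere, so 72 h values are also given without it. HOXB13, FOLH1, KRT8 and KRT18, which mark luminal prostate cells, had medians of 458 to 831 CPM (counts scaled to an equal library size). Of the basal markers, KRT5 and TP63 had no count in any library, and KRT14 was at 0 to 2.13 CPM. KRT14 fell with enzalutamide, from 1.59 ± 0.244 CPM with DMSO at 72 h (n = 3) to no count in any of the 3 cultures, and was not called with olaparib. The summed level of 10 markers of basal, stromal, endothelial and blood cells was 22.4 to 36.9 CPM over all libraries, mostly COL1A1 and VWF. At 72 h that sum was lower with olaparib (22.4 to 27.2 CPM) than with DMSO (28.4 to 36.9 CPM), while KRT5 and TP63 stayed at 0, and its part in the results was not tested. In bulk RNA, more cells expressing a gene and more RNA per cell cannot be told apart.

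DDB2 and POLH were called higher with olaparib, with and without enzalutamide, at 8, 24 and 72 h. XPC was likewise called at 24 and 72 h, but not at 8 h. None of these genes was called with enzalutamide alone in the fit of all libraries. XPC with enzalutamide at 24 h (53.5 to 53.8 CPM) nevertheless lay above DMSO (44.5 to 50.7 CPM). DDB2 and POLH were higher in all 18 olaparib-containing libraries than in any of the 18 others. This holds for 14 of the 15744 genes tested, 0.0889%. The other 12, singled out after their values were seen, were BTG2, CDKN1A, FAXDC2, HSPA4L, LIF, MDM2, PPM1D, RRM2B, SPATA18, SULF2, TP53I3 and ZMAT3. XPC was above all 18 other libraries in 12 of the 18. DMSO 72 h replicate 1 held it at 65.9 CPM. Combination 8 h replicate 3, at 55.73 CPM, also lay below DMSO 8 h replicate 1, at 55.83 CPM.

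**Figure D1:**
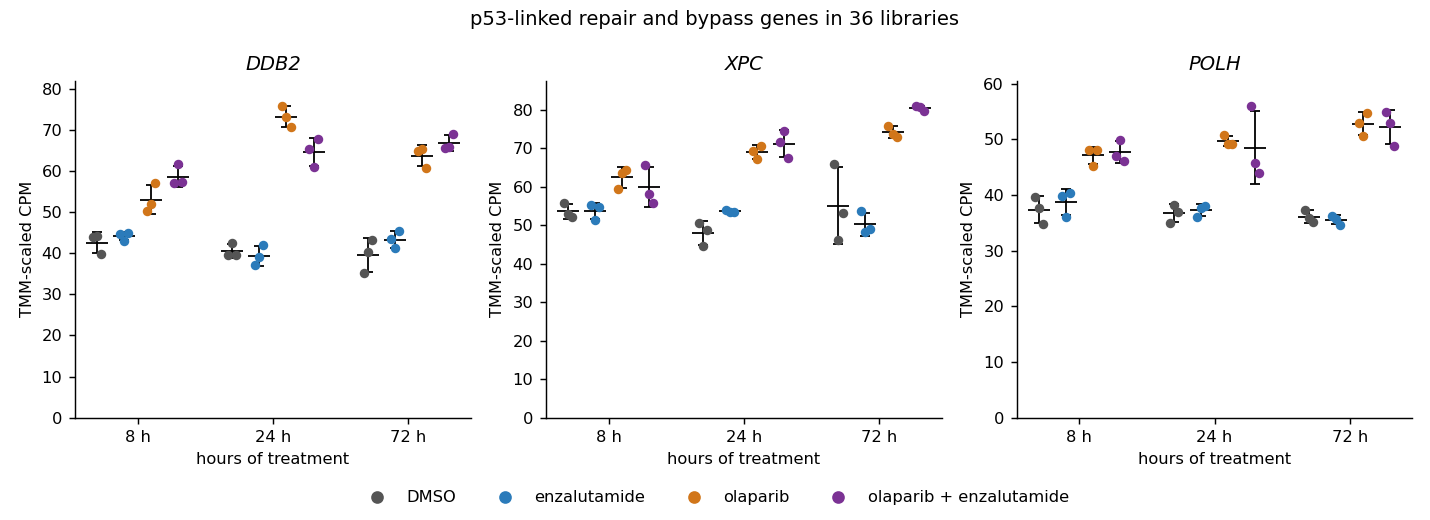
TMM-scaled CPM (y axis) of DDB2, XPC and POLH by hour of treatment (x axis). Points are single cultures and bars are the mean ± SD of 3. For DDB2 and POLH the orange (olaparib) and purple (combination) points lie above all grey (DMSO) and blue (enzalutamide) points, while 1 DMSO culture at 72 h reaches 65.9 CPM for XPC.

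DDB2 (ENSG00000134574, GRCh38 chr11:47214465-47239240, plus strand) encodes the subunit of the UV-damage binding complex that contacts the lesion. At 8 h it measured 44.0, 44.2 and 39.7 CPM with DMSO, 44.6, 43.0 and 44.9 with enzalutamide, 50.2, 51.9 and 57.0 with olaparib, and 57.1, 61.7 and 57.4 with the combination. The 6 cultures with olaparib were above the 6 without. At 24 h the 3 DMSO cultures were at 39.7, 42.6 and 39.6 CPM, those with enzalutamide at 37.1, 39.1 and 42, those with olaparib at 75.9, 73.2 and 70.9, and those with the combination at 65.4, 61.1 and 67.8. Here the olaparib groups had separated further. At 72 h it was at 35.2, 40.4 and 43.3 CPM with DMSO, 43.5, 41.2 and 45.4 with enzalutamide, 65.0, 65.5 and 60.9 with olaparib, and 65.6, 66.0 and 69.1 with the combination. Against DMSO at the same hour, its log2 fold change with olaparib was 0.31 ± 0.07 at 8 h (± standard error, edgeR quasi-likelihood test, adjusted p 0.0099), 0.85 ± 0.07 at 24 h (adjusted p 9.8e-12) and 0.68 ± 0.07 at 72 h (adjusted p 2.1e-09). The largest of these is a 1.80-fold rise. With the combination it was 0.46 ± 0.07 (adjusted p 8.2e-06), 0.67 ± 0.07 (adjusted p 4.1e-10) and 0.74 ± 0.07 (adjusted p 3.8e-11).

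XPC (ENSG00000154767, chr3:14145147-14178783, minus strand) encodes the protein that first binds helix distortions in the genome-wide branch. With DMSO it was at 55.8, 53 and 52.0 CPM at 8 h, at 50.7, 44.5 and 48.7 at 24 h, and at 65.9, 46.2 and 53.1 at 72 h, the widest spread of its 12 groups. Enzalutamide cultures stayed within 48.1 to 55.3 CPM at all hours. With olaparib it measured 59.4, 63.5 and 64.4 CPM at 8 h, 69.1, 67.1 and 70.6 at 24 h, and 75.8, 73.8 and 72.9 at 72 h. With the combination the values were 65.6, 58.0 and 55.7 CPM at 8 h, 71.7, 74.5 and 67.3 at 24 h, and 80.9, 80.6 and 79.7 at 72 h. The combination at 8 h overlapped DMSO by 1 culture, and the later groups did not. XPC was not called at 8 h with olaparib (0.22 ± 0.08, adjusted p 0.17) or the combination (0.16 ± 0.08, adjusted p 0.26). It rose at 24 h by 0.52 ± 0.08 with olaparib (adjusted p 2.4e-05) and 0.57 ± 0.08 with the combination (adjusted p 3.5e-07). At 72 h the values were 0.47 ± 0.08 (adjusted p 2.8e-05) and 0.58 ± 0.08 (adjusted p 1.1e-07), or 0.59 ± 0.07 and 0.71 ± 0.07 without DMSO 72 h replicate 1. The olaparib call at 72 h was lost when only the groups compared were fitted (0.46 ± 0.12, adjusted p 0.059). Over all alternatives at 72 h its log2 fold change ranged from 0.34 to 0.59 with olaparib (adjusted p 3.8e-08 to 0.059). With the combination it ranged from 0.45 to 0.71 (adjusted p 2.5e-11 to 0.0063). An antisense gene, XPC-AS1, shares 23.8% of the exon bases of XPC but had 182 counts in all against 20493, and counting ignored strand.

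POLH (ENSG00000170734, chr6:43576185-43620523, plus strand) encodes DNA polymerase eta, which copies accurately past UV-induced thymine dimers. It was at 39.6, 37.7 and 34.8 CPM with DMSO at 8 h, 35.1, 38.3 and 36.9 at 24 h, and 37.4, 35.9 and 35.2 at 72 h. Enzalutamide cultures ranged from 34.7 to 40.3 CPM. Olaparib cultures measured 48.0, 45.3 and 48.0 CPM at 8 h, 50.8, 49.2 and 49.2 at 24 h, and 53, 50.7 and 54.8 at 72 h. The combination gave 47.1, 49.9 and 46.1 CPM at 8 h, 56.0, 45.7 and 43.9 at 24 h, and 54.9, 53 and 48.9 at 72 h. No culture with olaparib overlapped one without. The log2 fold change with olaparib was 0.32 ± 0.07 (adjusted p 0.016), 0.44 ± 0.07 (adjusted p 1.8e-04) and 0.55 ± 0.07 (adjusted p 8.7e-07) at 8, 24 and 72 h. With the combination it was 0.35 ± 0.07 (adjusted p 0.0014), 0.40 ± 0.07 (adjusted p 5.8e-05) and 0.53 ± 0.08 (adjusted p 2.9e-07). GTPBP2 on the opposite strand shares 3.12% of its exon bases, so a small part of its reads is uncertain.

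Counts of members called, at an adjusted p below 0.05, were read against the share of all genes called. With olaparib 2 of 10 were called at 8 h, both higher, against 1.32% of all genes called and 0.553% called higher. At 24 h 3 of 10 were called higher, against 1.12% called and 0.654% higher. At 72 h 4 rose and 1 fell, against 17.9% called, 8.22% higher and 9.69% lower. With the combination 2 rose at 8 h (5.98% of all genes called, 2.13% higher), and 3 rose and 1 fell at 24 h (21.6% called, 9.63% higher, 12% lower). At 72 h 5 rose and 1 fell, against 42.5% called, 20% higher and 22.6% lower, a background that these 6 of 10 exceed by little. The median log2 fold change of the 7 other members lay from -0.11 to 0.01 in these 6 comparisons, against 0.31 to 0.58 for the 3 p53-linked members and from -0.01 to 0.01 for all genes. For olaparib at 8 h, the call of DDB2 was lost without olaparib 8 h replicate 3 (adjusted p 0.13), and that of POLH without DMSO 8 h replicate 2 or 3 or olaparib 8 h replicate 1 or 3 (adjusted p 0.054 to 0.090), with ranges over all alternatives of 0.0020 to 0.13 and 0.012 to 0.093.

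Within each lane, DDB2, XPC and POLH were higher with olaparib than with DMSO in 3 of 3 lanes at each hour, and the same held for the combination. For DDB2 and POLH this followed from the full separation of the libraries given above, so it adds no support. For XPC it was open only with the combination at 8 h, where the lane differences spanned 0.05 to 0.31. The lane differences of DDB2 with olaparib spanned 0.24 to 0.37 at 8 h, 0.78 to 0.93 at 24 h and 0.59 to 0.78 at 72 h on the log2 scale.

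**Figure D2:**
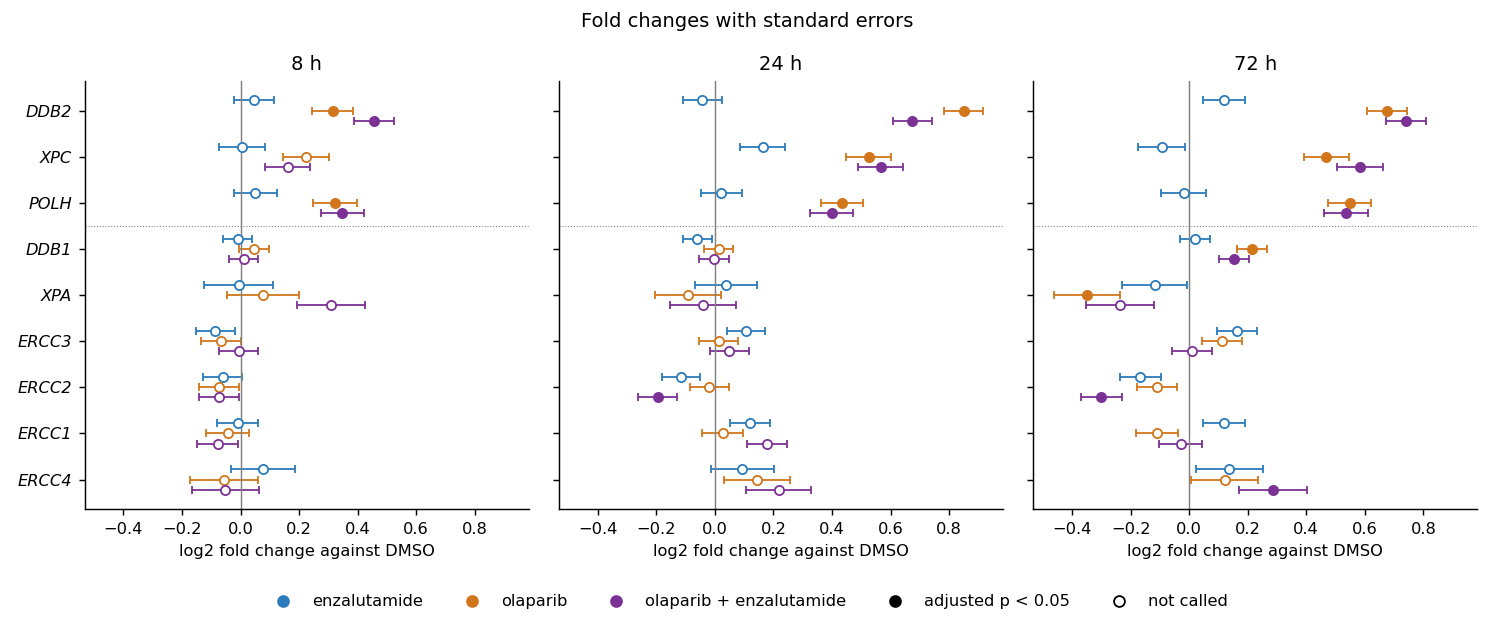
Log2 fold change against DMSO at the same hour (x axis) with its standard error for 9 members (rows), by treatment (colour). Filled points passed an adjusted p of 0.05. The 3 rows above the dotted line are DDB2, XPC and POLH, where the olaparib and combination points lie between 0.16 and 0.85 and the enzalutamide points between -0.09 and 0.16. ERCC5 is left out because few reads were counted to it.

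Enzalutamide alone was then compared with DMSO. None of the 10 members was called at 8, 24 or 72 h by edgeR or by DESeq2, while 3.02%, 18.8% and 27.2% of all genes were. At an unadjusted p below 0.05 edgeR gave 0, 1 (XPC, 0.16 ± 0.08 at 24 h) and 2 members (ERCC3, 0.16 ± 0.07, and ERCC2, -0.17 ± 0.07, at 72 h). The 95% intervals of the log2 fold change at 72 h were -0.03 to 0.27 for DDB2, -0.26 to 0.07 for XPC and -0.18 to 0.14 for POLH. Without DMSO 72 h replicate 1, ERCC3 was called higher (0.24 ± 0.06, adjusted p 0.0042) and ERCC2 lower (-0.20 ± 0.07, adjusted p 0.040), and without enzalutamide 72 h replicate 3 both were called too. Without DMSO 72 h replicate 2, XPC was called lower (-0.22 ± 0.08, adjusted p 0.033). Over all alternatives the adjusted p ranged from 0.0042 to 0.32 for ERCC3, from 0.040 to 0.36 for ERCC2 and from 0.033 to 0.82 for XPC. KLK3 and TMPRSS2, androgen-induced genes that check the drug's action, fell with enzalutamide by 0.88 ± 0.10 and 1.98 ± 0.06 at 8 h.

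What olaparib added in the presence of enzalutamide was asked by comparing the combination with enzalutamide, which shares no library with the comparison of olaparib with DMSO. At 8 h DDB2 (0.41 ± 0.07, adjusted p 2.6e-04) and POLH (0.30 ± 0.07, adjusted p 0.038) were higher, 2 of 10 members against 0.654% of all genes called. At 24 h DDB2 (0.72 ± 0.07, adjusted p 9.1e-10), XPC (0.40 ± 0.07, adjusted p 9.1e-04) and POLH (0.38 ± 0.07, adjusted p 0.0012) were higher, 3 of 10 against 1.92%. At 72 h the same 3 were higher, XPC by 0.68 ± 0.08 (adjusted p 2.2e-08), DDB2 by 0.62 ± 0.07 (adjusted p 9.5e-09) and POLH by 0.55 ± 0.07 (adjusted p 5.8e-07), 3 of 10 against 14.5%. The call of POLH at 8 h was lost with any 1 of the 6 libraries left out (adjusted p 0.061 to 0.30), and at 24 h without combination 24 h replicate 1 (0.26 ± 0.07, adjusted p 0.082), whose 56.0 CPM was the highest POLH value of all libraries. Over all alternatives the adjusted p of POLH ranged from 0.031 to 0.30 at 8 h and from 3.8e-04 to 0.082 at 24 h.

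**Figure D3:**
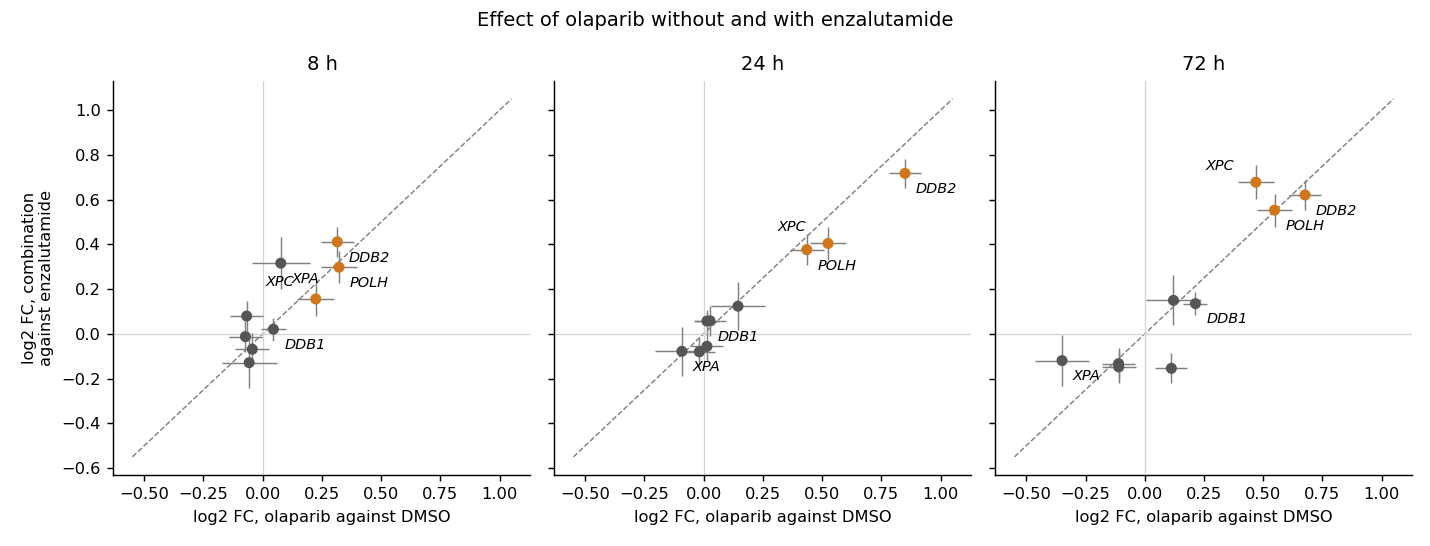
Log2 fold change of 9 members with olaparib against DMSO (x axis) and with the combination against enzalutamide (y axis), with standard errors, at 8, 24 and 72 h. Orange points are DDB2, XPC and POLH, grey points the other members without ERCC5, and the dashed line marks equal values. DDB2 at 24 h lies at 0.85 on the x axis and 0.72 on the y axis.

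Enzalutamide added to olaparib left the 3 p53-linked members uncalled. In the combination against olaparib, 0 of 10 members were called at 8 h (2.19% of all genes), 0 at 24 h (13.6%) and 1 at 72 h (34.2%). At an unadjusted p below 0.05 edgeR gave 1, 3 and 1 members, and DESeq2 called 0 at each hour. For DDB2 the difference was 0.14 at 8 h (95% interval 0.00035 to 0.28), -0.18 at 24 h (-0.31 to -0.04) and 0.06 at 72 h (-0.07 to 0.20). With the lane as a term in the fit, the lower level of DDB2 at 24 h was called (-0.18 ± 0.06, adjusted p 0.025), against 0.065 without it and a range of 0.025 to 0.32 over all alternatives. POLH differed by 0.03 (-0.13 to 0.18), -0.04 (-0.18 to 0.11) and -0.01 (-0.16 to 0.13), and XPC by -0.06 (-0.23 to 0.10), 0.04 (-0.11 to 0.20) and 0.11 (-0.04 to 0.27). Whether the combined log2 fold change departed from adding those of olaparib and enzalutamide was tested too, and was called for 0 of 10 members at each hour (0.0% of all genes at 8 and 24 h, 2.26% at 72 h), and by DESeq2 for 0 as well. At an unadjusted p below 0.05 edgeR gave 0 members at 8 and 24 h and 1 at 72 h, ERCC3 (-0.27 ± 0.10, adjusted p 0.14). ERCC3 was called without DMSO 72 h replicate 1 (-0.35 ± 0.09, adjusted p 0.021), and XPC without DMSO 72 h replicate 2 (0.34 ± 0.10, adjusted p 0.046). Over all alternatives the adjusted p ranged from 0.021 to 0.44 for ERCC3 and from 0.046 to 0.77 for XPC.

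The difference between the p53-linked members and the rest is a description, with no test. ERCC5 was left out of it after its counts were seen. The mean of DDB2, XPC and POLH minus the mean of the 6 other members, each as log2 CPM relative to DMSO at the same hour, was 0.32 ± 0.05 with olaparib at 8 h (mean ± SD, n = 3), 0.59 ± 0.07 at 24 h and 0.58 ± 0.05 at 72 h. With the combination it was 0.31 ± 0.04, 0.51 ± 0.09 and 0.63 ± 0.05. Enzalutamide gave 0.06 ± 0.05, 0.01 ± 0.06 and -0.03 ± 0.04, and single DMSO cultures lay from -0.13 to 0.07. The mean of the 6 other members alone moved from DMSO by -0.03 to 0.03 across the 9 treated groups.

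**Figure D4:**
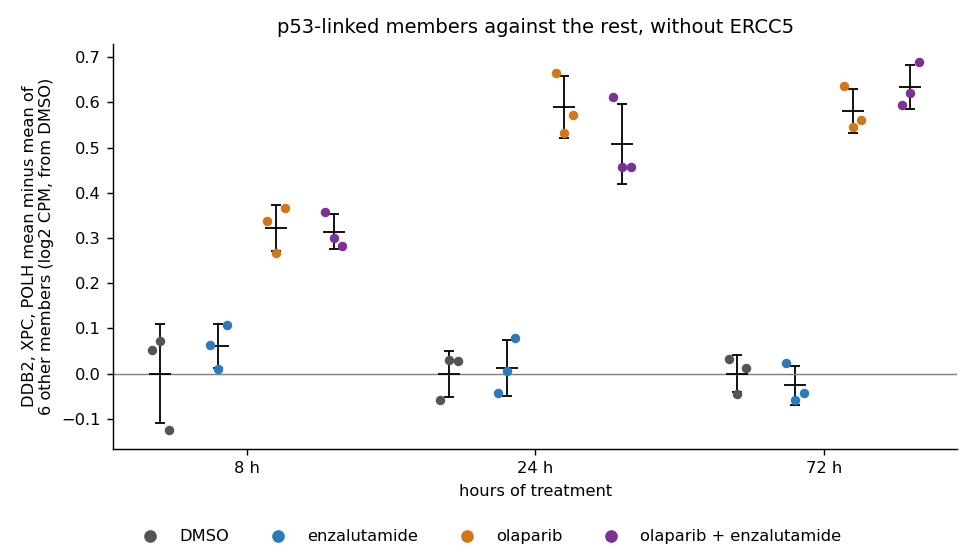
Mean log2 CPM of DDB2, XPC and POLH minus that of 6 other members (ERCC5 left out), relative to the DMSO mean at the same hour (y axis), by hour and treatment (x axis). Points are cultures and bars the mean ± SD of 3. The 18 olaparib-containing cultures lie between 0.27 and 0.69, and the 18 others between -0.13 and 0.11.

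Effects at 72 h were tested against those at 8 h. The effect of olaparib on DDB2 was larger at 72 h by 0.36 ± 0.10 (adjusted p 0.014), the only 1 of 10 members called, against 9.71% of all genes. The same difference for POLH was 0.23 ± 0.10 (adjusted p 0.18) and for XPC 0.25 ± 0.11 (adjusted p 0.16). With the combination XPC (0.42 ± 0.11, adjusted p 0.0045) and DDB2 (0.28 ± 0.10, adjusted p 0.031) gained and XPA lost (-0.55 ± 0.16, adjusted p 0.014), 3 of 10 against 22.9%. No member was called for enzalutamide (10.2% of all genes, 1 member at an unadjusted p below 0.05, 0 by DESeq2). Without DMSO 72 h replicate 1, XPC was called for olaparib too (0.37 ± 0.09, adjusted p 0.0097), ERCC3 was called for enzalutamide (0.33 ± 0.09, adjusted p 0.010), and DDB2 lost its call for the combination (0.23 ± 0.09, adjusted p 0.080). The call of DDB2 for olaparib was lost without DMSO 8 h replicate 2 (adjusted p 0.055) or olaparib 8 h replicate 2 (adjusted p 0.052). Its call for the combination was lost with any of 6 libraries left out (adjusted p 0.055 to 0.080), namely DMSO 8 h replicates 1 and 2, combination 8 h replicates 1 and 3, DMSO 72 h replicate 1 and combination 72 h replicate 3. DESeq2 (adjusted p 0.051), no filter (0.14) and a fit of only the groups compared (0.11) lost that call too. The call of XPA was lost without combination 8 h replicate 2 (adjusted p 0.062), and XPA was called for olaparib without DMSO 72 h replicate 2 (-0.57 ± 0.17, adjusted p 0.019). Over all alternatives the adjusted p ranged from 0.0039 to 0.13 for DDB2 with olaparib, from 0.011 to 0.14 for DDB2 with the combination, from 3.1e-05 to 0.070 for XPC with the combination and from 0.0020 to 0.062 for XPA with the combination. It ranged from 0.0097 to 0.51 for XPC and 0.019 to 0.36 for XPA with olaparib, and from 0.010 to 0.30 for ERCC3 with enzalutamide.

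DDB1 (ENSG00000167986, chr11:61299451-61342596, minus strand) is the partner of DDB2 and an adaptor of CUL4 ubiquitin ligases. It was the most abundant member by RPKM, a count scaled to library size and exon length, at 13 ± 0.452 in DMSO at 8 h (n = 3). At 72 h it measured 174, 176 and 167 CPM with DMSO, 174, 173 and 177 with enzalutamide, 199, 197 and 204 with olaparib, and 196, 201 and 178 with the combination. The olaparib and combination cultures were all above the DMSO cultures. DDB1 rose by 0.21 ± 0.05 with olaparib (adjusted p 0.0027) and 0.15 ± 0.05 with the combination (adjusted p 0.014) at 72 h. At 8 and 24 h its log2 fold changes with either were from -0.00 to 0.05 and not called. The olaparib call was lost when only the groups compared were fitted (adjusted p 0.11), within a range of 5.2e-04 to 0.11 over all alternatives. The combination call was lost without DMSO 72 h replicate 3 (adjusted p 0.052) or combination 72 h replicate 2 (adjusted p 0.089), within a range of 0.0016 to 0.15 over all alternatives. No filter (adjusted p 0.075) and a fit of only the groups compared (0.15) lost it too. DDB1 was called higher than with enzalutamide at 72 h by DESeq2 (adjusted p 0.037) and without combination 72 h replicate 3 (adjusted p 0.012), in a range of 0.012 to 0.32.

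ERCC2 (ENSG00000104884, chr19:45349837-45370918, minus strand), the 5′ to 3′ helicase of TFIIH, was the member that fell with the combination. At 72 h it measured 44.6, 47.8 and 49.9 CPM with DMSO, 42, 40.1 and 44.8 with enzalutamide, 41.9, 47.0 and 43.6 with olaparib, and 39.99, 40.1 and 35.9 with the combination. The combination cultures were all below the DMSO cultures and the olaparib cultures, and overlapped those with enzalutamide. Against DMSO it fell by 0.20 ± 0.07 at 24 h (adjusted p 0.033) and fell by 0.30 ± 0.07 at 72 h (adjusted p 7.5e-04). Against olaparib at 72 h it fell by 0.19 ± 0.07 (adjusted p 0.034). The call against DMSO at 72 h was lost when only the groups compared were fitted (adjusted p 0.051, and 3.8e-04 to 0.051 over all alternatives). The call at 24 h was lost without DMSO 24 h replicate 1 or 2 or combination 24 h replicate 2 or 3 (adjusted p 0.082 to 0.18, and 0.014 to 0.18 over all alternatives). DESeq2 (adjusted p 0.052) and no filter (0.17) lost it too. The call against olaparib was lost without olaparib 72 h replicate 2 or combination 72 h replicate 1 or 3 (adjusted p 0.050 to 0.23, and 0.030 to 0.23 over all alternatives). DESeq2 (adjusted p 0.10), no filter (0.22) and a fit of only the groups compared (0.070) lost it too. Its exons share 8.3% of their bases with KLC3.

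XPA (ENSG00000136936, chr9:97674909-97697357, minus strand), the scaffold that checks the lesion, changed with time in the vehicle. In DMSO it was at 13.2, 13.4 and 15.2 CPM at 8 h, 17.5, 17 and 17.4 at 24 h, and 21.3, 16.4 and 20.9 at 72 h. It was higher at 72 h than at 8 h by 0.47 ± 0.12 (adjusted p 0.022), the only member called there, against 2.81% of all genes. No member was called between 24 and 8 h (0.648% of all genes, 2 members at an unadjusted p below 0.05, 0 by DESeq2). Olaparib at 72 h gave 12.5, 15.9 and 17.9 CPM, which overlapped DMSO, with a fall of 0.35 ± 0.11 (adjusted p 0.029). That call was lost without DMSO 72 h replicate 1 or 3 or olaparib 72 h replicate 1 (adjusted p 0.11 to 0.35, and 0.0035 to 0.35 over all alternatives). DESeq2 (adjusted p 0.059), no filter (0.074) and a fit of only the groups compared (0.24) lost it too. The rise over time was lost without DMSO 8 h replicate 1 or 2 or DMSO 72 h replicate 1 or 3 (adjusted p 0.071 to 0.15, and 0.0015 to 0.53 over all alternatives). It was also lost with only the groups compared in the fit (adjusted p 0.53). With the combination at 72 h XPA was at 16.6, 15.7 and 16.4 CPM and not called (-0.24 ± 0.12, adjusted p 0.10), but was called without DMSO 72 h replicate 2 (-0.38 ± 0.13, adjusted p 0.014, in a range of 0.014 to 0.37).

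ERCC3 (ENSG00000163161, chr2:127257290-127294166, minus strand), the 3′ to 5′ helicase of TFIIH, ranged from 49.1 to 66.2 CPM over the 36 libraries, and ERCC1 (ENSG00000012061, chr19:45407333-45478828, minus strand), the partner of the nuclease ERCC4, from 41.1 to 55.1. Neither was called in the fit of all 36 libraries in any comparison of 2 treatments at the same hour. ERCC3 was called higher with olaparib at 72 h without DMSO 72 h replicate 1 (0.19 ± 0.06, adjusted p 0.041, in a range of 0.041 to 0.62). ERCC1 was called higher with the combination at 24 h when only the groups compared were fitted (0.18 ± 0.06, adjusted p 0.028, against 0.061 with all groups, in a range of 0.028 to 0.29). ERCC4 (ENSG00000175595, chr16:13920154-13952348, plus strand), the nuclease that cuts 5′ of the lesion, was at 13.9, 15.4 and 14.4 CPM with DMSO at 72 h and 18.6, 19.3 and 15.8 with the combination, a rise of 0.29 ± 0.12 (adjusted p 0.045). That call was lost without DMSO 72 h replicate 1 or 3 or combination 72 h replicate 1 or 2 (adjusted p 0.076 to 0.22, and 0.015 to 0.22 over all alternatives). DESeq2 (adjusted p 0.088), no filter (0.095) and a fit of only the groups compared (0.088) lost it too. ERCC1 shares 28.6% of its exon bases with POLR1G, which makes its level uncertain.

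ERCC5 (ENSG00000134899, chr13:102807146-102876001, plus strand), the nuclease that cuts 3′ of the lesion, was counted too rarely to compare. It received 1 to 26 counts per library and 382 in all, from 0.217 to 2.07 CPM. Of its 8075 exon bases, 64.6% are shared with the readthrough gene BIVM-ERCC5 and 19.5% with BIVM, and BIVM-ERCC5 had no count in any library. Its log2 fold changes against DMSO had standard errors of 0.40 to 0.50, and none was called. Its level is therefore not given as that of the transcript.

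**Figure D5:**
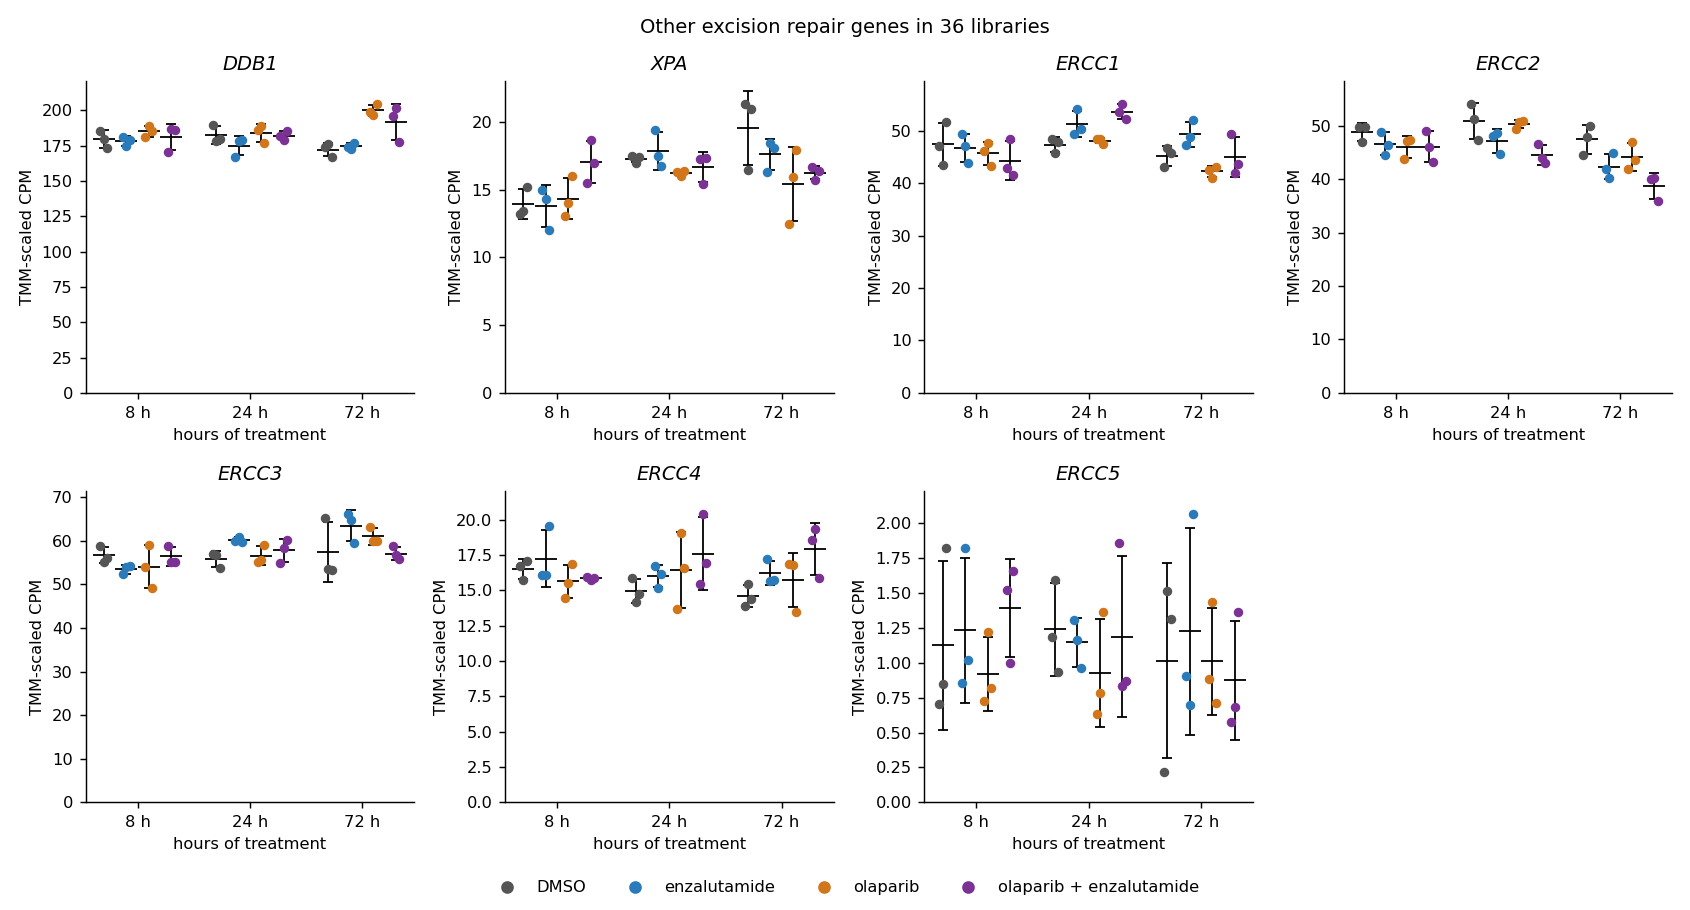
TMM-scaled CPM (y axis) of DDB1, XPA, ERCC1, ERCC2, ERCC3, ERCC4 and ERCC5 by hour of treatment (x axis). Points are cultures and bars the mean ± SD of 3. DDB1 with olaparib at 72 h lies at 197 to 204 CPM above DMSO, ERCC2 with the combination at 72 h at 35.9 to 40.1 CPM below it, and ERCC5 stays under 2.07 CPM.

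By length-scaled level in DMSO at 8 h, DDB1 (13 ± 0.452 RPKM) was followed by XPC (11.2 ± 0.416), DDB2 (8.71 ± 0.514), ERCC1 (8.50 ± 0.737), XPA (7.61 ± 0.609), ERCC2 (7.56 ± 0.249), ERCC3 (6.74 ± 0.218), POLH (4.46 ± 0.293) and ERCC4 (1.95 ± 0.0811). The neighbours DDB2 and ERCC1, and XPA and ERCC2, differed by less than the larger of their SDs, and the other neighbours by more. With olaparib at 24 h DDB2 reached 15 ± 0.515 RPKM and XPC 14.4 ± 0.360, while DDB1 was at 13.4 ± 0.461. These orders depend on the annotated exon length, 13769 bases for DDB1, 4897 for DDB2 and 4798 for XPC, which need not be the length transcribed here. Bases shared with other genes stay in that length. In CPM, DDB1 stayed the higher with olaparib at 24 h, at 184 ± 6.35 against 73.3 ± 2.52 for DDB2 and 68.9 ± 1.73 for XPC.

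The other genes of each step were read from lists of their own. Of 11 partners in damage recognition, none was called with any treatment at 8 h or with olaparib at 24 h. Of all genes, 3.02% were called at 8 h with enzalutamide, 1.32% with olaparib and 5.98% with the combination. With olaparib at 24 h 1.12% were. At 72 h 1 rose and 2 fell with olaparib, when 17.9% of all genes were called, and 1 rose and 5 fell with the combination, when 42.5% were, so both counts lie near the background. CUL4A, the scaffold of the DDB1-DDB2 ubiquitin ligase, fell at 72 h by 0.22 ± 0.06 with olaparib (adjusted p 0.011), 0.32 ± 0.06 with enzalutamide (adjusted p 1.1e-04) and 0.40 ± 0.06 with the combination (adjusted p 2.9e-06). ERCC6, the factor that couples repair to transcription, rose at 72 h with olaparib (0.26 ± 0.09, adjusted p 0.035) and the combination (0.31 ± 0.09, adjusted p 0.0048). The list medians at 72 h were -0.01 and -0.17, against -0.01 for all genes with either.

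Of 7 measured further subunits of TFIIH, none was called at 8 h. Of all genes, 3.02% were called then with enzalutamide, 1.32% with olaparib and 5.98% with the combination. With olaparib at 72 h 1 rose (CDK7, 0.28 ± 0.10, adjusted p 0.046), near the 17.9% of all genes called, and DESeq2 called 0. With the combination at 72 h 2 rose and 2 fell, a count near the 42.5% of all genes called. CCNH, the cyclin of the TFIIH kinase, fell with enzalutamide by 0.32 ± 0.07 at 24 h (adjusted p 8.1e-04) and 0.60 ± 0.07 at 72 h (adjusted p 6.3e-08). GTF2H2 rose with enzalutamide by 0.47 ± 0.07 at 72 h (adjusted p 1.4e-06), and near-identical copies of this gene make its count uncertain.

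Of 20 genes of replication protein A and gap filling, 14 fell with enzalutamide at 24 h, when 10.6% of all genes fell, and 4 at 72 h, near the 14.6% of all genes. With the combination 13 fell at 24 h (12% of all genes) and 17 at 72 h (22.6%), and with either treatment none rose. With olaparib 0 were called at 24 h (1.12% of all genes), and 2 fell and 1 rose at 72 h, near the 17.9% of all genes called. The list median was -0.31 and -0.09 with enzalutamide at 24 and 72 h, -0.28 and -0.41 with the combination, and -0.04 and -0.05 with olaparib. PCNA, the sliding clamp and itself a known p53 target, fell with enzalutamide at 24 h by 0.42 ± 0.05 (adjusted p 1.7e-07) and with the combination at 72 h by 0.45 ± 0.05 (adjusted p 1.3e-08). It was not called with olaparib at 24 h (0.14 ± 0.05, adjusted p 0.29). RFC4, a subunit of the clamp loader, fell by 1.09 ± 0.11 with the combination at 72 h (adjusted p 8.2e-11).

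Of 16 other bypass synthesis genes, 1 rose with olaparib at 8 h (1.32% of all genes called) and none was called at 24 h (1.12%). At 72 h 1 rose and 2 fell, near the 17.9% of all genes called. With the combination 1 rose at 8 h (5.98% of all genes called), 1 rose and 4 fell at 24 h (21.6%), and 3 rose and 5 fell at 72 h (42.5%). These counts lie near those shares. The gene that rose with olaparib at 8 and 72 h was REV3L, the catalytic subunit of polymerase zeta. It rose by 0.41 ± 0.10 at 8 h (adjusted p 0.031) and 0.64 ± 0.11 at 72 h (adjusted p 3.0e-05). At 24 h its value was 0.39 ± 0.10 (adjusted p 0.055). With the combination REV3L rose by 0.42 ± 0.10, 0.61 ± 0.10 and 1.03 ± 0.11 at 8, 24 and 72 h (adjusted p 0.0062, 1.9e-05 and 3.5e-10), and with enzalutamide by 0.40 ± 0.11 at 72 h (adjusted p 0.0049). RAD18, the ubiquitin ligase that recruits POLH, fell with enzalutamide at 24 h by 0.41 ± 0.12 (adjusted p 0.013) and with the combination at 72 h by 0.51 ± 0.14 (adjusted p 0.0026).

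Of 17 other p53-linked genes, a list known from these data to respond, 9, 14 and 14 rose with olaparib at 8, 24 and 72 h and 14, 15 and 13 with the combination, with none lower. Of all genes, 0.553%, 0.654% and 8.22% were called higher with olaparib at these hours, and 2.13%, 9.63% and 20% with the combination. CDKN1A rose by 1.83 ± 0.06 with olaparib at 24 h (adjusted p 9.9e-23) and MDM2, which targets p53 for degradation, by 0.72 ± 0.06 (adjusted p 2.2e-10), beside 0.85, 0.52 and 0.44 for DDB2, XPC and POLH. With enzalutamide at 72 h, 11 of the 17 fell and 3 rose, with a median of -0.38, when 27.2% of all genes were called and 14.6% fell. CDKN1A fell there by 0.35 ± 0.06 (adjusted p 3.5e-05) and MDM2 by 0.23 ± 0.07 (adjusted p 0.0065), beside 0.12 ± 0.07, -0.09 ± 0.08 and -0.02 ± 0.08 for DDB2, XPC and POLH, none of them called. Whether the members and these genes differed in that response was not tested.

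The genes whose 12 group means were most like those of each p53-linked member are given by Pearson's r over 14330 genes with a mean of at least 1 CPM, as a description. For DDB2 they were PTPRU (0.96), RRM2B (0.96), FBXW7 (0.96), POLH (0.95) and CDKN1A (0.95). For XPC they were ZMAT3 (0.97), MDM2 (0.96), CEACAM1 (0.96), SULF2 (0.96) and NEK9 (0.96), and for POLH MDM2 (0.98), RRM2B (0.98), SPATA18 (0.97), LIF (0.97) and FAXDC2 (0.97). The group means share libraries, depth and treatment. Between members, r was 0.95 for DDB2 and POLH, 0.93 for XPC and POLH, 0.90 for DDB2 and XPC, and, for DDB1, 0.81 with POLH, 0.75 with XPC and 0.70 with DDB2. ERCC4 had r from 0.38 to 0.49 with these 3, ERCC3 from -0.10 to 0.01, and XPA, ERCC1, ERCC2 and ERCC5 from -0.52 to -0.17.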

How the data were processed

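RNA of 36 LNCaP libraries was analysed from the table of gene counts the authors deposited. Per the file headers, the counts were made with featureCounts 2.0.0 on read pairs without strand, with Ensembl release 99. Per the submitters' processing notes, STAR and hg38 were used, and the aligner's version is not given in the sources used here. Per the labels' protocols, TruSeq libraries from 1 µg of RNA were read as pairs of 150 bases. The authors' deposited table also gives positions and exon lengths, used for RPKM. Of 60676 gene IDs, 60357 matched a symbol.

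All 36 libraries entered 1 edgeR 4.0.16 quasi-likelihood fit (R 4.3.3) with 12 group means, TMM scaling and filterByExpr, which kept 15744 genes and 99.8% of counts. The biological coefficient of variation was 6.44% with 24 residual degrees of freedom. Each of 23 contrasts was adjusted by Benjamini-Hochberg over all genes and called below 0.05. Standard errors were obtained by dividing the size of each log2 fold change by the root of its F statistic, and intervals are at 95%. The fit was tested on simulated data (olaparib at 24 h, 15451 genes) and called 84 of 100 genes changed 2-fold, 62 of 100 changed 1.41-fold and 9 unchanged genes. The first criterion, 85 of the 2-fold genes, was not met and was replaced after that run by one on 2-fold genes of at least 10 CPM, of which 65 of 65 were called. The simulated counts had the same coefficient of variation for all genes and no lane effect or outlying library. These rates therefore need not hold in the real data. The labels describe triplicate cultures, so p-values measure the spread between cultures of 1 line.

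The members and lists were chosen with earlier results of these data known. All 10 members are named. From each list the 3 called genes with the largest change per comparison were eligible, with KLK3, TMPRSS2, CDKN1A, MDM2, PCNA, GADD45A and BIVM-ERCC5, and the 5 genes most like each p53-linked member. Alternatives were median-ratio scaling, mitochondrial genes left out, no filter, a replicate block, a lane term, a fit of only the groups compared, each library left out and DESeq2 1.42.0. Some genes of the marker and pathway lists are not reported here by name.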

Additional observations from a re-analysis of the deposited data

Results flagged for a closer look

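For 3 members, the effect of olaparib or of the combination was called different between 8 h and 72 h. The test was of the difference of the log2 fold changes in the edgeR fit. Called were 1 of 10 members with olaparib, against 9.71% of all genes, and 3 of 10 with the combination, against 22.9%. Both counts lie near these shares. The effect of olaparib on DDB2 was 0.36 ± 0.10 larger at 72 h (adjusted p 0.014), and that of the combination on DDB2 0.28 ± 0.10 larger (adjusted p 0.031). The effect of the combination on XPC was 0.42 ± 0.11 larger (adjusted p 0.0045) and on XPA changed by -0.55 ± 0.16 (adjusted p 0.014). All share the DMSO cultures of 8 and 72 h, where XPA rose by 0.47 and where 1 culture at 72 h stood apart. The call of DDB2 held in 15 of 19 alternatives with olaparib and in 10 of 19 with the combination. Those of XPC and XPA with the combination each held in 18 of 19.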

How the results depend on the processing

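With only the groups compared in the fit, members called fell to 0 with olaparib at 8 h, 2 at 72 h, 3 with the combination at 72 h, 1 for the combination against enzalutamide at 8 h and 0 against olaparib at 72 h, and to 0, 1 and 0 for the changes of effect of olaparib, of the combination, and of DMSO from 8 to 72 h. Without a filter, 1 was called for the combination against enzalutamide at 8 h, and 0 against olaparib at 72 h and for the change of the olaparib effect. DESeq2 called 0 for the combination against olaparib at 72 h, and the lane term 1 at 24 h. Leaving out 1 library gave 0 to 2 calls for olaparib at 8 h, 0 to 2 for enzalutamide at 72 h, 1 to 1 for the combination against enzalutamide at 8 h, 0 to 1 against olaparib at 72 h, 0 to 1 for the departure at 72 h, 0 to 1 and 0 to 2 for the changes of the enzalutamide and olaparib effects, and 0 to 1 for DMSO over time. The p53-linked members minus all 7 others, from fitted values, were 0.53 (combination, 24 h) and 0.70 (72 h), or 0.51 and 0.64 without ERCC5, an alternative chosen after seeing the data, and 0.63 at 72 h with only the groups compared. With 1 library left out these ranged from 0.21 to 0.38 for olaparib at 8 h, 0.15 to 0.31 for the combination at 8 h, 0.51 to 0.56 at 24 h and 0.61 to 0.76 at 72 h, and 0.52 to 0.67 for olaparib at 72 h. With the combination at 8 h, median-ratio scaling and DESeq2 each called 1 damage recognition gene (against 0) and 1 gap-filling gene (against 2), and DESeq2 called 0 of TFIIH with olaparib at 72 h. Same-numbered libraries deviated together little (mean r 0.014, lowest -0.19, against a mean of -0.0066 for different numbers), and 17 of 36 were closest to their own number. These weak correlations cannot decide whether the numbers pair the cultures. Libraries of 1 lane had a mean r of 0.047, against -0.023 between lanes, and 24 of 36 were closest to their own lane. In the fit with the replicate block, the count of members called was 2 with olaparib at 8 h, 3 at 24 h and 5 at 72 h, as without it. No member called in the fit of all libraries changed direction under the alternatives run, but values near 0 turned sign. With enzalutamide, XPC at 72 h ranged from -0.22 to 0.03, and the p53-linked members minus the rest from -0.08 to 0.08 at 8 h, -0.00 to 0.08 at 24 h and -0.13 to 0.07 at 72 h with 1 library left out. Levels rest on 54 to 2932 counts per library for 9 members, which limits XPA and ERCC4, and on 1 to 26 for ERCC5.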
